A study of Mus musculus with 133 samples.

Results

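Of 133 arrays of mammary tumours, 20 came from tumours with a strong signal of skeletal muscle and were chosen by the level of Myh4, the myosin heavy chain of the fastest muscle fibres. Arrays whose animal number carried the suffix r and the animals 14094, 14095, 14312 and 14320 were left out, which kept 47 tumours with running-number titles and 76 with other titles. The Myh4 level was centred within each of these title forms. Centred levels above 1 defined the muscle tumours, levels below 0.5 the 100 remaining tumours, and 3 tumours lay between the limits. All were mammary tumours of untreated F1 females that carried PyMT, from Diversity Outbred mothers (generation 5 of the outbred stock) crossed to MMTV-PyMT fathers. They were harvested when the tumours neared 10% of body weight. The MMTV promoter drives the polyoma middle T antigen mainly in mammary epithelium, and each daughter carried her own mixture of founder alleles. The 2 sets of tumours shared transgene, sex and design and were set apart by Myh4 alone. Every tumour was counted as its own animal, and P values cover the spread between animals of this cross.

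Skeletal muscle fibres shorten when myosin heads pull on actin filaments within the sarcomere, and calcium released from the sarcoplasmic reticulum starts each contraction. Slow fibres use the heavy chain of Myh7 and depend on mitochondria, while fast fibres use those of Myh2, Myh1 and Myh4 in order of rising speed, and the fastest live largely on creatine phosphate, glycogen and glycolysis. Mammary epithelium makes no sarcomeres, but the mammary glands of the mouse lie under the skin next to a thin sheet of fast skeletal muscle and over the muscle of the body wall. RNA was extracted from mammary tumours, and the part sampled is not given in the sources used here. In such tissue, fewer cells of a type and less RNA per cell cannot be told apart.

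The genes Myh3, Myh2, Myh1 and Myh4 stand in this order on chromosome 11, and their upstream sequences are shown because the adult genes of this cluster moved together in the muscle tumours while the embryonic Myh3 rose less. The 250 bases before each start site were taken from RefSeq (GRCm38.p6). Capitals mark E-boxes (CANNTG, the motif that factors of the MyoD family bind, which reads the same on both strands) and TATA motifs (TATAAA on either strand, written TTTATA where it runs on the other strand), and no marked motifs overlapped.
Myh4 (chr11:67237562-67237811, plus strand): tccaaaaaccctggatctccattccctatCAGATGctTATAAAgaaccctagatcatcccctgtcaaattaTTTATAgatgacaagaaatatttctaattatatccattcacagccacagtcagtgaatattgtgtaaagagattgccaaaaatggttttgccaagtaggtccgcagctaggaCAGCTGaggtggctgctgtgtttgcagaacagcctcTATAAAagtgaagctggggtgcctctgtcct
Myh1 (chr11:67199852-67200101, plus strand): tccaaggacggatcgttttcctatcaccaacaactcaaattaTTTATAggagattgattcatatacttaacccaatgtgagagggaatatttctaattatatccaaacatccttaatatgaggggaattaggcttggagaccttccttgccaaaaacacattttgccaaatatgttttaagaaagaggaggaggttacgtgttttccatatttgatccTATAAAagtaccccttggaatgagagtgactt
Myh2 (chr11:67170777-67171026, plus strand): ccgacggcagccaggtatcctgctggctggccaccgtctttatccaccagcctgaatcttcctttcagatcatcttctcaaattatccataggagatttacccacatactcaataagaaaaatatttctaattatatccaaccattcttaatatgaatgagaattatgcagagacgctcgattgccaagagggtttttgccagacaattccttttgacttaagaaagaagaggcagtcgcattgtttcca
Myh3 (chr11:67078050-67078299, plus strand): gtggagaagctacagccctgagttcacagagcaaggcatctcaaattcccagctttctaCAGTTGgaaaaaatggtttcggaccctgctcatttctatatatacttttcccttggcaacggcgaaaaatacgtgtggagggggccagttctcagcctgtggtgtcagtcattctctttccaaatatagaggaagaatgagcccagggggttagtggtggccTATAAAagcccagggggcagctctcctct
Myh4 held 2 E-boxes and 3 TATA motifs in this window, Myh1 held 0 and 2, Myh2 held 0 and 0, and Myh3 held 1 and 1. Of the 32851 promoters in the table, 66.2% held an E-box and 12.4% a TATA motif in a window of the same length. These matches describe the letters alone and were not set against the levels.

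Myh4 itself ran from 6.97 to 10.31 on the log2 scale in the muscle tumours (median 8.47) and from 4.81 to 6.12 in the remaining tumours (median 5.19). The sets could not overlap in centred Myh4, which chose them, so its levels are a description with no test, and it is left out of every count of genes below. The highest levels were those of animals 14090 (10.31) and 14000 (10.19). Just inside the upper limit stood animal 14141 with a centred level of 1.15, and just outside it animals 14273 (0.91), 14086 (0.86) and 14118 (0.77). The highest of the remaining tumours was animal 14354 (0.37). Muscle tumours made up 6 of 47 tumours with running-number titles (12.8%) and 14 of 76 with other titles (18.4%). The plot of Myh4 by rank shows a steep upper part and a long flat tail.

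**Figure D1:**
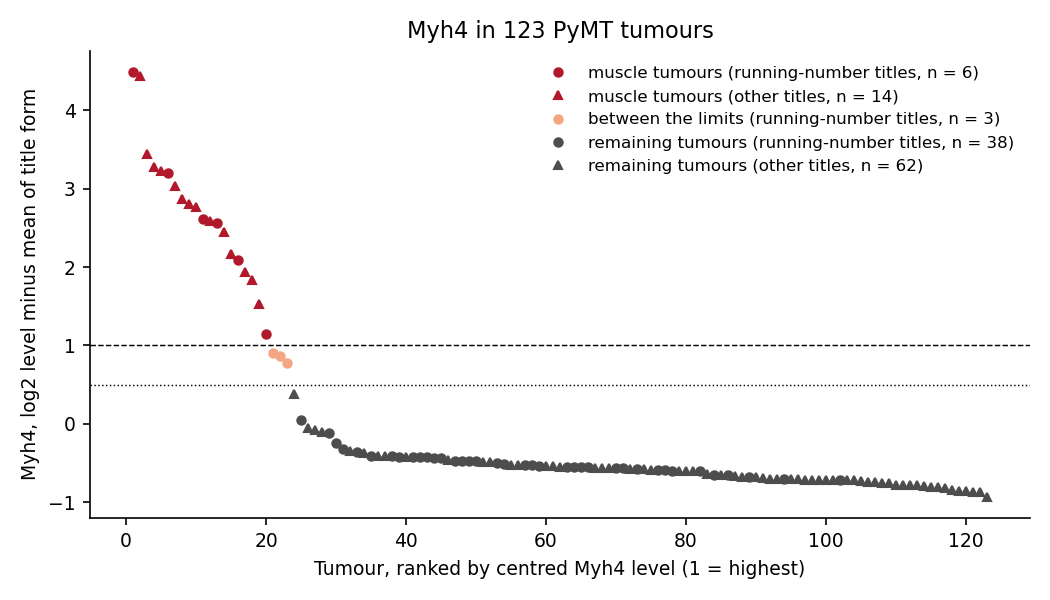
Centred Myh4 level (log2 level minus the mean of the title form) of all kept tumours ranked from the highest, with circles for running-number titles, triangles for other titles and dashed and dotted lines at 1 and 0.5. The 20 muscle tumours run from 1.15 to 4.49, the 3 tumours between the limits from 0.77 to 0.91, and the remaining tumours end at 0.37.

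The label was checked against Pvalb, Ckm and Acta1, which had no part in the choice. Pvalb encodes parvalbumin, the calcium buffer of fast fibres, and had levels from 5.61 to 10.10 (median 7.82) in the muscle tumours and from 4.73 to 5.87 (median 5.07) in the remaining tumours. Ckm, muscle creatine kinase, ran from 7.37 to 11.31 (median 9.20) in the muscle tumours and from 5.94 to 8.29 (median 6.46) in the remaining ones. Acta1, the actin of skeletal muscle, ran from 8.67 to 12.31 (median 9.94) in the muscle tumours and from 6.76 to 9.04 (median 7.24) in the remaining ones. Above every remaining tumour stood 19 of 20 muscle tumours for Pvalb, 18 for Acta1 and 15 for Ckm, so that all 3 markers bore the label out. The tumours were labelled as mammary. Krt8, a keratin of luminal epithelium, lay between 11.53 and 12.51 in the muscle tumours and between 11.25 and 12.65 in the remaining ones. This gene alone does not show the organ.

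Across 19937 genes other than Myh4, 368 were higher in the muscle tumours (1.85% of those tested) and 339 were lower (1.7%), with limma, the title form as covariate and a Benjamini-Hochberg adjusted p under 0.05. The median difference over all genes was 0.01, the median of the higher genes 0.16 and that of the lower genes -0.20. After quantile normalization of the kept arrays 1.16% of all genes were higher and 0.627% lower, and 90.5% and 83.2% of these were among the genes called before. The array median was itself higher in the muscle tumours, by 0.036 log2 units (permutation test within title form, 2-sided, p = 0.00217, adjusted over 2 measures 0.00434). With the array median as a term 139 genes were higher and 25 lower, so that mostly the larger rises passed in both fits. Genes that rose by more than 1 and passed the threshold numbered 33, of which 27 stood in a list of skeletal muscle genes. Genes of muscle lists come from the same arrays as the Myh4 level that chose the tumours, and their values and counts are given as a description.

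Of 150 measured genes in 11 lists of skeletal muscle genes, 82 passed the threshold upwards and 1 downwards, against 1.85% and 1.7% of all genes. All muscle tumours stood above all remaining tumours for 3 genes, or 0.015% of those measured, and these were Tnnt3, Actn3 and Xirp2. With the array median as a term, 74 of the 82 higher muscle list genes still passed, against 64 of the 286 higher genes outside these lists. Leaving out each muscle tumour in turn gave between 79 and 86 muscle list genes higher.

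The fast fibre genes beside Myh4 rose together, 14 of 14, with a median difference of 2.04. The heavy chains followed the order Myh4 (3.30), Myh1 (2.20, SE 0.11) and Myh2 (1.42, SE 0.10) in their differences. The first place of Myh4 was favoured by the rule, which used its level. This order is not one of levels, since each probeset has its own response. Myh1, the heavy chain of type 2X fibres, ran from 5.64 to 9.08 (median 6.90) in the muscle tumours and from 4.38 to 5.98 (median 4.66) in the remaining ones. Myh2, the heavy chain of type 2A fibres, ran from 5.17 to 8.61 (median 6.30) in the muscle tumours and from 4.61 to 6.26 (median 4.99) in the remaining ones. Myh1 thus stood above all remaining tumours in 18 muscle tumours and Myh2 in 11.

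The difference of Myl1, the fast essential light chain, exceeded that of every other gene with 4.11 (SE 0.20), a ratio of 17.3. Its levels were 6.86 to 10.93 (median 9.04) in the muscle tumours and 3.98 to 7.56 (median 4.76) in the remaining ones. Atp2a1, the calcium pump of fast fibres, was 3.70 higher (SE 0.13), with 7.86 to 11.66 (median 9.84) in the muscle tumours and 5.38 to 7.90 (median 5.98) in the remaining ones. For both genes 19 of 20 muscle tumours lay above all remaining tumours. Myl1 also varied among the remaining tumours, with an SD of 0.78 there, against 0.39 for Atp2a1 and 0.17 for Pvalb. The remaining tumours of animals 13953 and 13973 had 6.83 and 6.86 for Myl1, beside 6.33 and 5.75 for Atp2a1. Casq1, which binds calcium in the sarcoplasmic reticulum of fast fibres, was 2.16 higher, and Mybpc2, the fast myosin binding protein C, 2.50 higher. The fast troponins Tnnt3, Tnnc2 and Tnni2 were higher by 2.11, 1.53 and 1.07. Actn3, the Z-disc actinin of fast fibres, was higher by 1.97, its partner Myoz1 by 1.59, the fast regulatory light chain Mylpf by 0.95 and the light chain kinase Mylk2 by 0.73.

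Slow fibre genes split into a few that rose and a core that did not pass. Of 12 genes 5 passed, 7 were higher at an unadjusted p under 0.05 and none fell, and the list had a median difference of 0.07. Myh7, the slow heavy chain, ran from 5.42 to 6.05 (median 5.62) in the muscle tumours and from 5.33 to 5.92 (median 5.61) in the remaining ones, and the ranges overlapped almost whole. Its difference was 0.07 (SE 0.03, limma adjusted p = 0.145). The differences were 0.04 for the slow light chain Myl2 (SE 0.03), 0.01 for Myl3 (SE 0.06), 0.08 for slow troponin I Tnni1 (SE 0.04) and 0.03 for slow troponin C Tnnc1 (SE 0.04), none of which passed. Casq2, calsequestrin of slow and heart muscle, and Myh7b had differences of 0.05 and 0.01.

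The slow list genes that passed were led by Mybpc1, the slow myosin binding protein C, which fast fibres also make. It ran from 5.77 to 8.30 (median 6.83) in the muscle tumours and from 5.13 to 6.58 (median 5.48) in the remaining ones, a difference of 1.38 (SE 0.08). Ankrd2, a stretch-responsive ankyrin protein, was 0.57 higher, Csrp3, a Z-disc LIM protein, 0.53 and Myoz2, the slow calsarcin, 0.47. Tnnt1, slow troponin T, was higher by 0.15 (SE 0.04, limma adjusted p = 0.0339) and was lost with the array median as a term (adjusted p = 0.467). Within the muscle tumours the median rise of the other 14 fast genes over the remaining tumours of the same title form ran from 0.81 to 3.91, and that of the slow genes from -0.10 to 0.35. The plot of fast and slow fibre genes shows the fast genes set apart and Myh7, Myl2 and Tnni1 on top of each other.

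**Figure D2:**
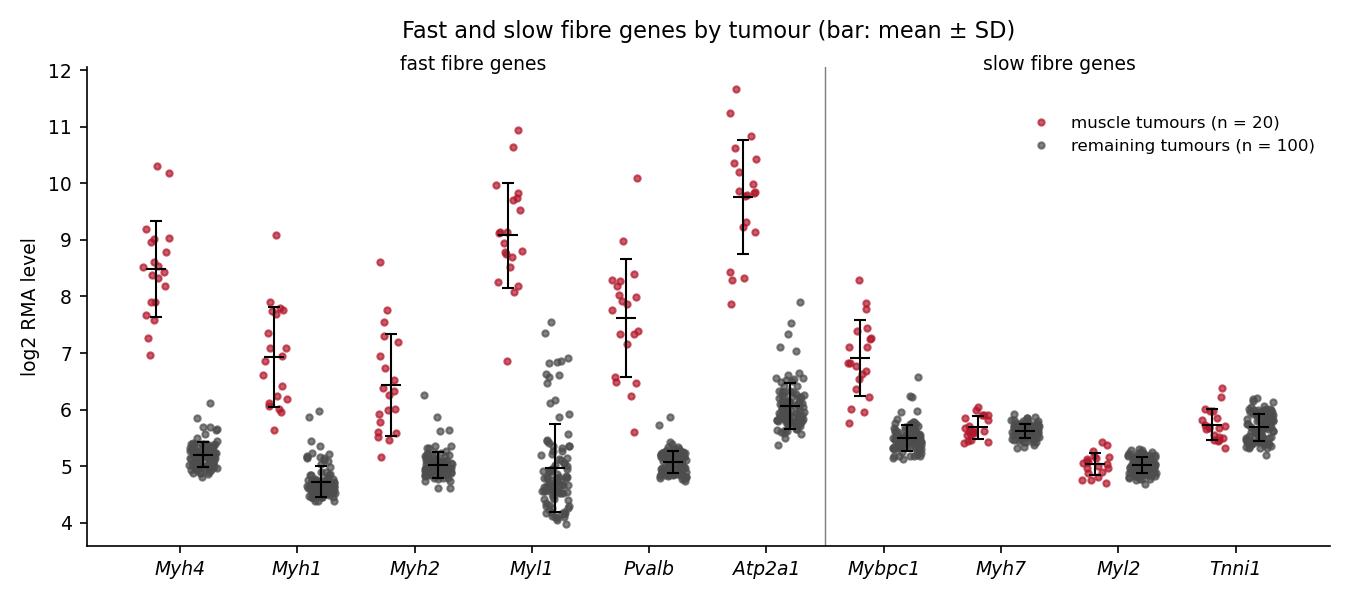
Log2 RMA levels of 6 fast and 4 slow fibre genes, with muscle tumours (n = 20) on the left of each pair and remaining tumours (n = 100) on the right, points for tumours and bars for mean ± SD. Myl1 and Atp2a1 show the widest gaps, while Myh7 covers 5.42 to 6.05 in the muscle tumours and 5.33 to 5.92 in the remaining ones.

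Of the sarcomere genes that all fibres share, 24 of 27 rose, with a median of 0.63. The giant proteins were among them, nebulin (Neb) with a difference of 2.07 and titin (Ttn) with 1.89, as were myotilin (Myot, 1.97), Xirp2 (1.80), Klhl41, which steadies nebulin (1.73), and the actinin Actn2 (1.63). Xirp2, an actin-binding protein of striated muscle, ran from 4.66 to 8.47 in the muscle tumours and from 3.61 to 4.63 in the remaining ones, with no overlap. Myoz3, Klhl40 and Tmod1 had differences of 0.12, 0.11 and 0.01 and did not pass.

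Calcium release genes rose less, with 10 of 15 past the threshold and a median of 0.23. Ryr1, the calcium release channel, was 1.14 higher (SE 0.07), and Cacna1s, the voltage sensor that opens it, 0.66 higher (SE 0.05). Triadin (Trdn), which ties the channel to calsequestrin, was 0.66 higher, and the junctophilins Jph1 and Jph2 were 0.32 and 0.20 higher, Jph2 being lost with the array median as a term (limma adjusted p = 0.28). Sln, the sarcolipin that slows the calcium pump, and the chloride channel Clcn1 had differences of 0.10 and 0.05 and did not pass.

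In energy metabolism, of 7 genes of creatine and nucleotide turnover 6 rose, led by Ckm (2.55, SE 0.12) and Ampd1, the muscle AMP deaminase (0.92, SE 0.06). Ckmt2, the mitochondrial creatine kinase of muscle, was 0.56 higher. Of 19 glycogen and glycolysis genes 6 rose and 13 did not pass, with a median of 0.11. Pygm, muscle glycogen phosphorylase, ran from 6.57 to 9.76 (median 8.27) in the muscle tumours and from 5.18 to 7.52 (median 5.58) in the remaining ones, a difference of 2.50 (SE 0.11). Eno3, muscle enolase, was 2.49 higher (SE 0.13), but only 2 muscle tumours stood above all remaining tumours, of which the highest reached 9.97. Pgam2, muscle phosphoglycerate mutase, was 1.08 higher, and the phosphorylase kinase subunits Phka1 and Phkg1 0.33 and 0.23. Pfkm, muscle phosphofructokinase, was 0.21 higher (limma adjusted p = 0.0341) and was lost with the array median as a term (adjusted p = 0.115). Ldha (0.11), Aldoa (0.03) and Hk2 (0.08), which tumours use as well, did not pass.

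Of 14 oxidative genes of muscle 2 rose. Mb, the oxygen store myoglobin, was 0.66 higher (SE 0.11), with 7.10 to 9.30 (median 7.69) in the muscle tumours and 6.20 to 8.49 (median 7.04) in the remaining ones. Cox6a2, the striated muscle subunit of cytochrome oxidase, was 0.37 higher (SE 0.05). Fabp3, which carries fatty acids, Cox7a1 and Ppargc1a, a regulator of mitochondria, had differences of 0.27, -0.04 and -0.36 and did not pass. Of 19 respiratory chain genes that all cells use, 0 were higher at the adjusted or the unadjusted threshold, 5 were lower at the unadjusted one, and Cox4i1 was lower by 0.15 (limma adjusted p = 0.0236, 0.348 with the array median as a term).

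Genes of muscle growth and breakdown rose in 7 of 9 cases. Mstn, myostatin, the brake on muscle growth that fibres secrete, was 0.88 higher (SE 0.06), with 4.34 to 6.66 (median 4.92) in the muscle tumours and 3.85 to 4.77 (median 4.18) in the remaining ones. Trim63, the ubiquitin ligase MuRF1 of muscle wasting, was 0.31 higher, whereas Fbxo32, the atrogin of the same process, had a difference of 0.01 (SE 0.11). Of 11 genes of the dystrophin complex 3 rose, Sgca (0.40), Sgcd (0.30) and Dmd itself (0.15), of which Sgcd was lost with the array median as a term (limma adjusted p = 0.208). Sgcb had a difference of -0.30 (limma adjusted p = 0.0443), which no longer passed with the array median as a term (adjusted p = 0.266).

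**Figure D3:**
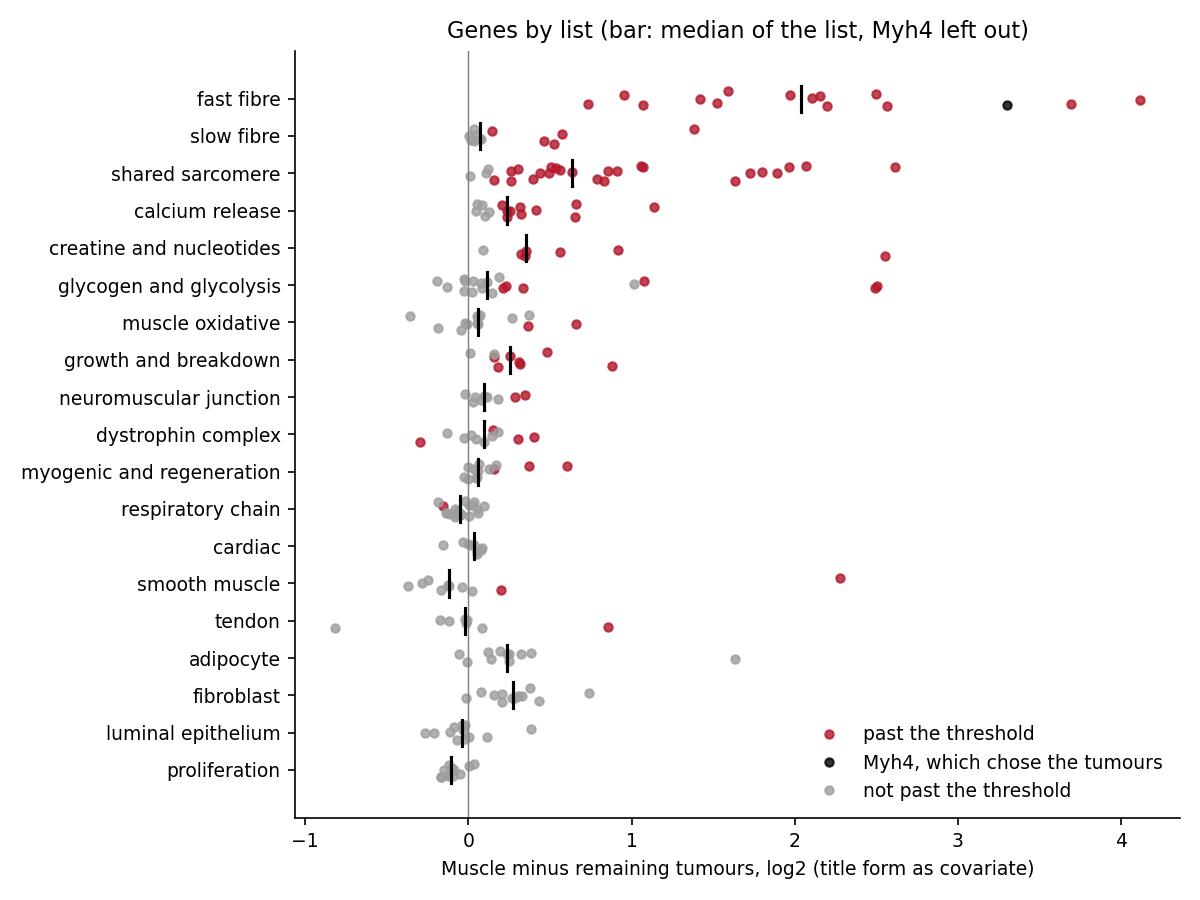
Differences in log2 level, muscle minus remaining tumours with title form as covariate, for every measured gene of 19 lists, with red points past the limma threshold, grey points not past it, Myh4 in black and a bar at each list's median without Myh4. The medians are 2.04 for fast fibre, 0.63 for shared sarcomere and 0.07 for slow fibre genes.

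Of 13 genes of immature or regenerating muscle 3 rose and 6 were higher at an unadjusted p under 0.05, with a list median of 0.06. The 3 were Myf6, the MyoD family member that adult fibres keep (0.60, SE 0.04), the embryonic light chain Myl4 (0.37, SE 0.06) and Myh3 (0.15, SE 0.03). Myh3 ran from 4.11 to 5.13 (median 4.46) in the muscle tumours and from 4.07 to 4.70 (median 4.31) in the remaining ones. Myod1, Myf5, Pax7 and Myog, which mark myoblasts and satellite cells, had differences of 0.06, 0.06, 0.05 and -0.02 and did not pass. The perinatal Myh8 had a difference of 0.17 (SE 0.08, limma adjusted p = 0.227), and its maximum of 7.69 lay in a remaining tumour.

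At the neuromuscular junction 2 of 9 genes rose and 5 were higher at an unadjusted p under 0.05. Chrna1, the acetylcholine receptor subunit of muscle, ran from 4.74 to 5.89 (median 5.20) in the muscle tumours and from 4.62 to 5.13 (median 4.83) in the remaining ones, a difference of 0.35 (SE 0.04). It stood above all remaining tumours in 10 muscle tumours and lay among them in the other 10. Musk, the kinase that gathers the receptors, was 0.28 higher (SE 0.03). Chrnd, Chrne, Rapsn and Dok7 had differences between -0.02 and 0.11 and did not pass.

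The strength of the signal differed widely between the 20 muscle tumours. The rise of Myh4 over the remaining tumours of the same title form was lowest at 1.64 and highest at 5.06. Its SD was 0.85 against 0.20 in the remaining tumours, but the limits of the rule bound both spreads, which are a description. Pvalb, which had no part in the choice, rose by 0.61 to 4.90, with SDs of 1.01 and 0.17. Animal 14090 led in Myh1 (9.08), Myh2 (8.61), Pvalb (10.10), Ckm (11.31) and Acta1 (12.31). At the other end animal 14141 had 5.64 for Myh1, 6.25 for Pvalb and 8.80 for Acta1, and animal 14170 had 5.61 for Pvalb and 8.67 for Acta1.

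Most fast genes followed Myh4 closely. Over all kept tumours the 20 genes most like Myh4 by Pearson's r all stood in muscle lists, led by Actn3 (0.97), Atp2a1 (0.97), Pvalb (0.97), Casq1 (0.97) and Tnnt3 (0.97). These correlations describe tumours in 2 unequal sets, and the genes share each array. Within the 20 muscle tumours r with Myh4 was 0.96 for Actn3, 0.88 for Pvalb, 0.79 for Myh2 and 0.67 for Myl1, and without animal 14090 it was 0.95, 0.85, 0.73 and 0.57. Of the genes of the junction and of immature muscle that rose, r was 0.75 for Myf6, 0.39 for Chrna1, 0.32 for Myl4, 0.19 for Musk and 0.12 for Myh3. Without animal 14090 it was 0.67, 0.29, 0.12, -0.01 and 0.06 in the same order.

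The mix of fast heavy chains also varied. The rise of Myh2 minus that of Myh4 ran from -2.68 in animal 14352 to -0.74 in animal 14170, with a median of -1.89. Myh4 chose the tumours, so the rule bears on the size of this value. Animal 14311 had a high Myh1 (7.69) beside a low Myh2 (5.61), whereas animal 14170 had 6.01 for Myh1 beside 6.39 for Myh2. Among the tumours between the limits animal 14118 had 6.68 for Myh1, 6.78 for Myh2 and 8.81 for Myl1, levels within the range of the muscle tumours, with a Myh4 level of only 6.59.

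A few remaining tumours carried muscle genes with little or no Myh4. Animal 13958 had 8.29 for Ckm, 9.04 for Acta1 and 5.98 for Myh1, with a Myh4 level of 5.15 that lay 0.02 above the mean of its title form among the remaining tumours. Animal 14032 had 6.26 for Myh2, 7.36 for Myl1 and 6.58 for Mybpc1, with 5.08 for Myh4. In both, Pvalb stayed at 5.23 and 4.96. By the median rise of the fast genes other than Myh4 these animals held ranks 24 and 26 among the kept tumours, and animal 14354 held rank 23.

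**Figure D4:**
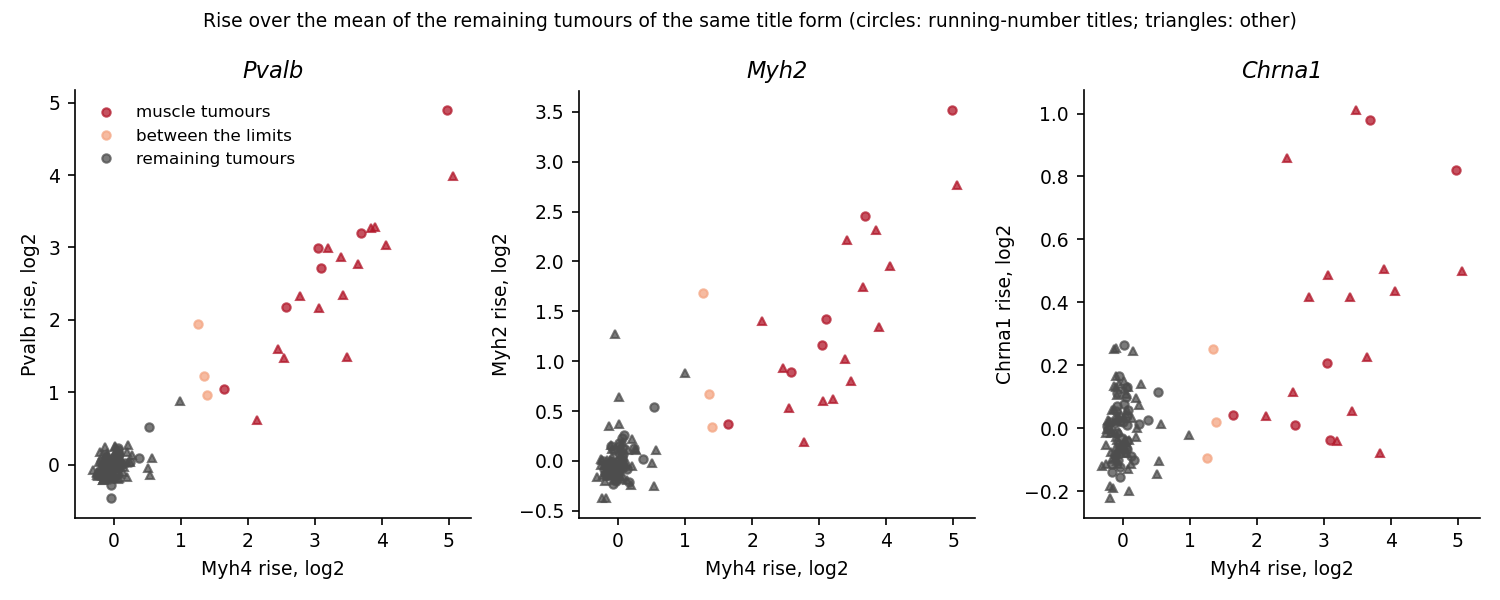
Rise of Pvalb, Myh2 and Chrna1 against that of Myh4 in all kept tumours, each as log2 level minus the mean of the remaining tumours of the same title form, with muscle tumours in red, tumours between the limits in orange and remaining tumours in grey. Pvalb follows Myh4 closely, Myh2 less so, and Chrna1 reaches 1.01 in animal 14352 while 3 muscle tumours lie below 0.

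The muscle tumours that correlated least with the other arrays were animals 14352 (mean r 0.953) and 14050 (0.967), against 0.961 to 0.984 in the remaining tumours. Over all 20 muscle tumours the mean correlation was lower by 0.0015 (permutation test within title form, 2-sided, p = 0.184). Animal 14352 had the lowest Myl1 (6.86) and Atp2a1 (7.86) of the muscle tumours and the highest Chrna1 (5.89) and Myh3 (5.13), and animal 14050 had 5.74 for Chrna1. Both animals had a second array with the suffix r. In animal 14352 that array gave 8.34 for Myh4 and 7.73 for Myl1, but 4.62 for Chrna1 and 3.86 for Myh3, beside 4.20 to 4.58 and 3.50 to 3.79 in 3 suffix r arrays without the Myh4 signal. In animal 14050 it gave 7.75 for Myh4, 8.62 for Myl1 and 5.50 for Chrna1. Without both tumours 173 genes were higher and 60 lower.

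Outside the muscle lists 286 genes were higher, and the 15 with the largest differences, by the rule for named genes, were led by desmin. Des, the intermediate filament desmin of all muscle types, ran from 7.24 to 11.17 (median 8.28) in the muscle tumours and from 5.33 to 7.73 (median 6.15) in the remaining ones. It was 2.28 higher (SE 0.13, limma adjusted p = 1.25e-31). Fhl1, a LIM protein of muscle, was 1.67 higher (SE 0.15, adjusted p = 9.01e-18), Ankrd23, a partner of titin, 1.18, the kinase Mylk4 1.17 and the small heat shock protein Hspb6 1.13. Further genes were Tpm2, a tropomyosin (1.09), Tmem182 (0.98), Cap2 (0.94), Klhl31 (0.90), Pdlim3 (0.88), Ppp1r3a, which targets a phosphatase to glycogen in muscle (0.88), Hjv, the iron regulator hemojuvelin of muscle and liver (0.80), and filamin C (Flnc, 0.72). Apobec2, a muscle protein of the deaminase family, was 0.92 higher (SE 0.27, limma adjusted p = 0.0332). It overlapped widely, with 5.76 to 9.58 in the muscle tumours and 4.94 to 9.54 in the remaining ones, and was lost with the array median as a term (adjusted p = 0.167).

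Markers of other tissues that could lie beside a tumour were counted gene by gene. Of 218 genes in 23 lists of other cells and processes, 3 were higher and 2 lower with limma. These counts did not exceed the shares over all genes, 1.85% higher and 1.7% lower. The lower genes were Cox4i1 and the ribosomal gene Rplp0 (-0.14, adjusted p = 0.0303, 0.288 with the array median as a term). The higher genes were Des and Synpo2, both of the smooth muscle list, and Thbs4, a matrix protein of tendon that muscle makes too. Synpo2, an actin-binding Z-disc protein, was 0.20 higher (SE 0.05, limma adjusted p = 0.0157) and was lost with the array median as a term (0.225). Thbs4 was 0.86 higher (SE 0.24, limma adjusted p = 0.0295), with 7.86 to 10.78 (median 9.27) in the muscle tumours and 5.92 to 11.16 (median 8.61) in the remaining ones, and was lost with the array median as a term (0.125). The other 7 tendon genes did not pass. The differences of the tendon list ran from -0.81 to 0.86, with 1 gene lower at an unadjusted p under 0.05. The tenocyte marker Tnmd and the tendon factor Scx had differences of -0.02 each. The contractile smooth muscle genes Acta2 (-0.13), Myh11 (-0.12) and Cnn1 (-0.37) did not pass, and 2 genes of the smooth muscle list were lower at the unadjusted threshold. Of 9 cardiac genes 0 passed, with 2 at an unadjusted p under 0.05, and the differences lay between -0.16 and 0.08.

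Fat, skin and gland markers varied from tumour to tumour without a called difference. Of 11 adipocyte genes 0 passed and 1 was past the unadjusted threshold, with a median difference of 0.24. The summed signal, taken as the list's mean level, ran from 6.70 to 9.49 in the muscle tumours and from 6.13 to 10.29 in the remaining ones. Car3, carbonic anhydrase of fat and slow muscle, had a difference of 1.63 with a wide error (SE 0.54, limma adjusted p = 0.0649), and Adipoq, the fat hormone adiponectin, 0.32 (SE 0.33). Of 12 fibroblast genes 0 passed and 2 were past the unadjusted threshold, with a median of 0.27 and mean levels of 7.91 to 9.88 in the muscle tumours and 6.53 to 9.98 in the remaining ones. The brown fat gene Ucp1 reached 10.00 in animal 14000, and 4 of 20 muscle tumours lay above the 90th percentile of the remaining tumours for it. Above that percentile lay 1 muscle tumour for the skin gene Krt10 (9.21 in animal 13983) and 2 for the salivary gene Amy1. Of 11 skin genes and of 11 salivary genes 0 passed, at the adjusted or the unadjusted threshold. Of 12 luminal genes 0 passed, with 1 up and 1 down at an unadjusted p under 0.05, and the list's mean level was 9.84 to 10.73 in the muscle tumours and 9.62 to 10.73 in the remaining ones. Of 12 proliferation genes 0 passed and 1 was lower at the unadjusted threshold, with a median of -0.11. Of 9 milk genes 0 passed and 3 were higher at the unadjusted threshold, with a median of 0.41, and the casein Csn2 had a difference of 1.03 (SE 0.52, limma adjusted p = 0.242). In lists of macrophages, neutrophils, T and NK cells, B cells, endothelium and Schwann cells 0 genes passed, while at the unadjusted threshold 1 macrophage, 1 T and NK cell and 1 Schwann cell gene was higher and 2 Schwann cell genes were lower. The part of these markers in the results was not tested.

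The largest falls in the muscle tumours were smaller than the largest rises, and the falls were less firm. The median fall of the lower genes was -0.20, beside a median rise of 0.16 among the higher genes. The largest of the falls was that of Fbp1, the gluconeogenic fructose bisphosphatase, with 4.87 to 8.23 (median 6.35) in the muscle tumours and 5.19 to 10.70 (median 7.56) in the remaining ones. It fell by 1.01 (SE 0.29, limma adjusted p = 0.0341), and the ranges overlapped in most of their length. Krt23, an epithelial keratin, fell by 0.74, Calml3, a calmodulin-like protein of epithelium, by 0.72, the kinase Hunk by 0.56, the ion transporter Nipal4 by 0.55 and Ccnjl by 0.52. Further falls were Ikzf1, a lymphoid transcription factor (-0.49), Chrm3, a muscarinic receptor (-0.46), the kinase Mapk11 (-0.44), Cited4 (-0.40) and the desmosomal cadherin Dsc2 (-0.37). Of the 20 largest falls only Mapk11 passed with the array median as a term (limma adjusted p = 0.0345, 0.00227 without it). It had 6.39 to 7.93 (median 7.29) in the muscle tumours and 6.83 to 8.94 (median 7.77) in the remaining ones.

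The muscle genes were also compared within each form of title. For Atp2a1 the difference was 3.69 in the running-number titles and 3.70 in the other titles, for Acta1 2.68 and 2.58, and for Tnnc2 1.95 and 1.33. Fbp1 differed by -2.38 and -0.39 in the same order. A test of the difference between the title forms called 0 genes (limma interaction term, 1347 genes at an unadjusted p under 0.05, lowest adjusted p = 0.407). With only running-number titles 0.612% of all genes were higher and 0.181% lower, and with only other titles 0.913% and 0.431%. Of the lower genes called in running-number titles alone 36.1% were among the 339, and of those called in other titles alone 83.7%. For the higher genes these shares were 87.7% and 96.7%, and each title form holds part of the tumours of the joint comparison.

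**Figure D5:**
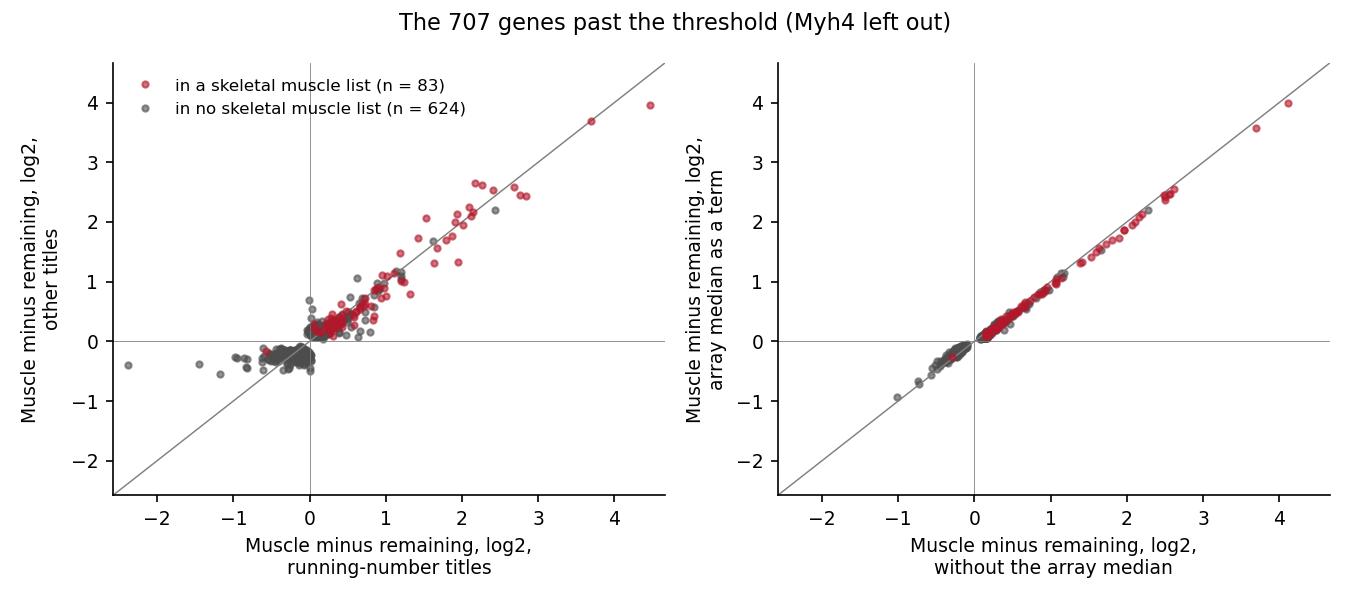
Differences in log2 level, muscle minus remaining tumours, of the 707 genes past the limma threshold other than Myh4, in running-number against other titles on the left and without against with the array median as a term on the right, with genes of skeletal muscle lists in red. Muscle list genes follow the diagonal, and the lower genes gather between 0 and -1 in the other titles.

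The small RNAs of muscle were not informative on these arrays. Mir1a-1, Mir133a-1, Mir133a-2 and Mir206 had mean levels between 3.06 and 3.67 in the muscle tumours and between 3.03 and 3.64 in the remaining ones, and did not pass. Mir1a-2 was 0.09 higher (SE 0.02, limma adjusted p = 0.0175), with means of 2.94 and 2.86, and was lost with the array median as a term (0.0849). These genes and the following were chosen after their values were seen. The adult muscle paralogues of general translation genes rose, Eef1a2 by 0.57 (SE 0.05, limma adjusted p = 8.14e-18) and Rpl3l by 0.33 (SE 0.04, adjusted p = 1.34e-12), while the difference of Eef1a1 was -0.02 (SE 0.02). Mef2c, a transcription factor of muscle and other tissues, was 0.33 higher (SE 0.08, adjusted p = 0.00392), and Mef2a and Mef2d had differences of 0.05 and -0.14 that did not pass.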

How the data were processed

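RNA of 133 mammary tumour arrays (Affymetrix Mouse Gene 1.0 ST, 131 animals, 1 biological group) was analysed. The deposited values are log2 levels, which the authors computed by RMA, a method that corrects background, normalizes arrays by quantiles and summarizes the probes of a probeset. The deposited array medians still differed, from 5.87 to 6.29 in the compared tumours, so that quantiles were not equal across the series. Not given in the sources used here are the version of RMA and the genome build. Among 35556 probesets with values between 1.89 and 14.0, the platform table gave 1 gene symbol for 21789, several for 1621 and none here for 12146, so that 19938 genes were named. The probeset with the highest mean stood for the 999 genes with several. The number of arrays limits the precision.

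Members and lists were chosen with earlier results of these data known. The 6 suffix r arrays, whose suffix is not explained in the labels, and 4 animals were left out by the rule, which left 47 tumours with running-number titles and 76 with other titles. Muscle and remaining tumours were compared by the lmFit and eBayes (trend) functions of limma 3.58.1 under R 4.3.3 with title form as covariate. P values were 2-sided, adjusted by Benjamini-Hochberg across the 19938 genes and called under 0.05. Myh4, which chose the tumours, stood in each fit but in no count. On simulated data of the same size the fit was tested with known shifts. Array medians and mean correlations were compared with 100000 permutations within title form. Named genes were the 25 largest rises and 20 largest falls among called genes that kept their direction within each title form, the 15 largest rises outside muscle lists, the 20 genes most like Myh4 and list members. The alternatives were quantile normalization, a filter on low genes, the mean over probesets, centring on the median, a limit of 2, a slope on Myh4, each title form alone, all animals, the array median as a term, a robust variance model and leaving out each muscle tumour. Leaving out the 2 muscle tumours of lowest correlation, and taking the tumours between the limits as muscle, were added after the data were seen.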

Additional observations from a re-analysis of the deposited data

Results flagged for a closer look

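In all, 4 arrays left out of the comparison carried Myh4 above the highest remaining tumour (6.12). The array 14022r, whose animal has no array among the kept tumours, reached 10.32, above the level of every kept tumour, with 9.07 for Pvalb, 9.74 for Ckm, 10.48 for Acta1 and 11.10 for Atp2a1, and with 8.33 for the brown fat gene Ucp1. Animal 14320 had 7.38 for Myh4 and 8.72 for Ckm. The suffix r arrays of the muscle tumours 14352 and 14050 gave 8.34 and 7.75 for Myh4, where their arrays without the suffix gave 8.61 and 7.58. Levels of suffix r arrays are not on one scale with the others, since their array medians lay between 5.36 and 5.58, against 5.90 to 6.29 in the muscle tumours.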

How the results depend on the processing

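Against 1.85% of all genes higher and 1.7% lower, 1.16% and 0.627% were called after quantile normalization, 1.21% and 0.632% with Myh4 centred on the median, 3.01% and 2.72% with a slope on Myh4 over all kept tumours, 0.612% and 0.181% in running-number titles alone, 0.913% and 0.431% in other titles alone, 0.697% and 0.125% with the array median as a term, 0.868% and 0.301% without the 2 muscle tumours of lowest correlation and 1.09% and 0.527% with the tumours between the limits taken as muscle. With all animals 0.813% were higher and 2.2% lower, and with a limit of 2 the lower genes were 0.677%. The setting with all animals took in the suffix r arrays, with no term for their lower array medians. With only genes above the median level, 48 genes were higher and 343 lower of 9969 tested. These were 0.241% and 1.72% of all 19937 genes, so that the lower genes made up a larger share of the genes tested. The filter left out some of the muscle list genes, and 15 of those tested passed. The cause of these shifts was not tested, and it was not separated from the fewer genes or tumours that a setting leaves. Leaving out each muscle tumour gave 1.03% to 2.89% higher and 0.577% to 3.11% lower. The extremes came without animal 14050 (1.03% and 0.577%), 14352 (1.07% and 0.592%), 14311 (2.89% higher) and 13951 (3.11% lower), and the lower genes were 0.647% without 14000, 1.06% without 14085, 1.02% without 14121 and 1.13% without 13975. Between 79 and 86 muscle list genes were higher in these fits, and 62 of the 82 higher muscle list genes passed under every alternative that tested them, while 0 of the 20 largest falls did. No named gene turned its sign in a setting where it passed. With a limit of 2, 1 gene differed between the title forms. No paired analysis was possible because replicate numbers follow the order of the samples only.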
